A study of Mus musculus with 9 samples.

Results

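Heat shock proteins and their cochaperones were examined in the striatum of R6/2 mice, a model of Huntington disease, and of wild-type mice. The genes were taken by symbol (Hsp, Dnaj, Cct2 to Cct8, Bag1 to Bag6 and Hsf, without Hspg2), and 91 of the 18194 genes measured on the arrays matched. They were 14 Hsp70 and Hsp110 genes, 44 Dnaj genes, 6 Bag genes, 2 Hsp90 genes, 9 Cct genes, Hspd1 and Hspe1, 8 small heat shock protein genes, 3 heat shock factor genes and 3 others (Hspbap1, Hspbp1 and Hsf2bp). Hsf1, Hsp90ab1 and Dnajc19 were not analysed here.

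The 5 R6/2 mice (labelled R62_86, R62_95, R62_105, R62_107 and R62_109) carry a transgene made of the first exon of human huntingtin, with a long CAG repeat and the human promoter, besides their own mouse huntingtin alleles. The 4 wild-type mice (animals 46, 47, 49 and 66) lack the transgene. All were females of a mixed C57Bl/6 / CBA background at 12 weeks; the 4 wild-type mice and R6/2 mouse R62_86 were 85 days old and the other 4 R6/2 mice 83 days. Each mouse gave 1 array of whole striatum, with values on the log2 scale from RMA, which equalises the distribution of the arrays. Below, values are given in the order of these animal numbers.

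Chaperones bind unfolded proteins and help them to fold, to be refolded or to be degraded. Hsp70 proteins work in cycles of ATP hydrolysis, which J-domain proteins (the Dnaj genes) start by delivering clients and which Bag proteins help to end by releasing the nucleotide. Hsp90 acts later on selected clients, the ring-shaped chaperonin of Cct subunits folds actin and tubulin, and Hspd1 with Hspe1 forms the chaperonin of mitochondria. Heat shock factors bind heat shock elements, arrays of inverted GAA units, in the promoters of many of these genes. Members of these families are known modifiers of the aggregation of polyglutamine proteins in cells and model organisms.

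The striatal identity of the tissue was checked first. All 8 measured markers of the striatum's spiny projection neurons, its most numerous nerve cells, passed as lower in R6/2 mice, with a list mean of 9.10 to 10.07 in R6/2 and 11.19 to 11.49 in wild-type mice. In whole tissue, fewer cells of a type and less RNA per cell cannot be told apart. Markers of cortex projection neurons lay higher in R6/2 mice, where 4 of 10 measured markers rose (list mean 6.59 to 7.63 in R6/2 and 5.80 to 6.81 in wild-type mice). The choroid plexus list ranged from 5.18 to 7.32 in R6/2 and from 5.70 to 8.88 in wild-type mice, and 0 of its 8 measured markers passed in limma, also at an unadjusted p of 0.05. RMA values have no zero, so no marker can be called absent. Of the glial lists, 5 of 8 astrocyte, 4 of 8 microglia and 2 of 7 oligodendrocyte markers were lower in R6/2 mice, and 0 of 7 endothelial markers passed, also unadjusted. Gfap was the 1 astrocyte marker with a positive difference and did not pass (0.42 ± 0.16, limma adjusted p 0.0941). The part of these shifts in the chaperone results was not tested. Fits with the cortex score, or without the arrays of highest choroid plexus score, are given below.

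Most chaperone genes that changed were slightly higher in R6/2 striatum. Of the 91 members 17 rose, 4 fell and 70 did not pass the threshold (limma, Benjamini-Hochberg adjusted p under 0.05 over all 18194 genes). Over all genes 16.9% passed, 9.28% as higher and 7.57% as lower, against 18.7% higher and 4.40% lower among the members. The median difference (R6/2 minus wild-type, log2) was 0.07 over the members and -0.02 over all genes. Apart from Bag2, the rises were between 0.22 and 0.50, which is at most 1.41-fold. In 20 of the 91 members the 2 groups of mice did not overlap, against 17.3% of all genes.

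**Figure D1:**
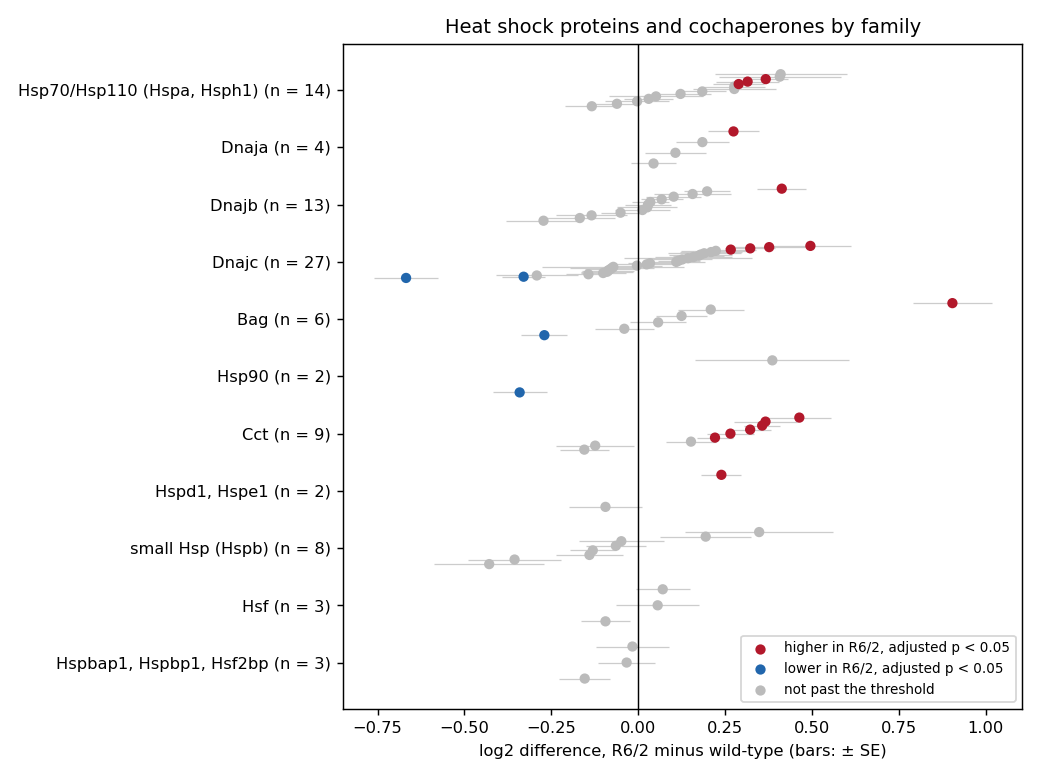
Log2 difference between R6/2 and wild-type striatum (x axis, bars ± SE) for each of the 91 members, grouped by family. The 17 members that rose include 6 of the 9 Cct genes, Bag2 lies farthest to the right at 0.90, and Dnajc2 lies farthest to the left at -0.67.

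The share of rises has to be read against brightness, because 65 of the 91 members belonged to the brighter 50% of genes and bright genes passed more often. In a fit of the brighter 50% alone, 17.9% of genes rose and 11.9% fell, against 27.7% (18 of 65) and 6.15% (4 of 65) of the members. Among the 26 members in the dimmer 50%, Bag2 was the 1 that passed (3.85%). The share of all dimmer genes that passed was not counted.

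Promoter sequences are shown for some of the members that matched 3 or 2 units of the heat shock element. Regulation of these genes by a heat shock factor was not tested. RefSeq promoters (GRCm38.p6, 250 bases before to 50 after the start) were available for 75 of the 91 members. A match to 3 inverted units, that is GAA, TTC and GAA or TTC, GAA and TTC with any 2 bases between neighbours, on either strand, was found in 4 of these 75 genes (5.33%), against 0.662% of all 27025 genes with a promoter. They were Hspd1, Hspe1, Dnajb6 and Hsph1, whose match lies after its start and is not printed. With 2 units, GAA, any 2 bases and TTC (which reads the same on both strands and is contained in the longer motif), 17 of the 75 members matched (22.7%), against 9.04% of all genes. Of the 15 members with a promoter that passed the expression test, 4 held the 2-unit motif, namely Cct2, Dnaja1, Dnajc27 and Hspd1. Capitals mark the match:
Hspd1, chr1:55088053-55088082, minus strand: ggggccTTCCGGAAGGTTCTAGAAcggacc
Hspe1, chr1:55088053-55088082, plus strand: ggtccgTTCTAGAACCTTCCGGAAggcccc
Dnajb6, chr5:29735844-29735872, plus strand: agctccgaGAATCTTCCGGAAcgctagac
Cct2, chr10:117063400-117063427, minus strand: cccaagtgaaGAAGTTTCtagcaggacc
Dnajc27, chr12:4082351-4082378, plus strand: acccatcggtGAAGATTCcaggaaaaaa
Hspa1a, chr17:34972243-34972270, minus strand: gaaactgctgGAAGATTCctggccccaa
Hspa1b, chr17:34959325-34959352, minus strand: gaaactgctgGAAGATTCctggccccaa
Hspb1, chr5:135887812-135887839, plus strand: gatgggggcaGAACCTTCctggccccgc
The Hspd1 and Hspe1 lines are the 2 strands of 1 element, which lies between the starts of these divergent genes. The Hspa1a and Hspa1b promoters were identical at 296 of 300 positions. Dnaja1, a J protein that rose, is shown over the 250 bases before its start (chr4:40722218-40722467, plus strand), with its single match in capitals:
Dnaja1: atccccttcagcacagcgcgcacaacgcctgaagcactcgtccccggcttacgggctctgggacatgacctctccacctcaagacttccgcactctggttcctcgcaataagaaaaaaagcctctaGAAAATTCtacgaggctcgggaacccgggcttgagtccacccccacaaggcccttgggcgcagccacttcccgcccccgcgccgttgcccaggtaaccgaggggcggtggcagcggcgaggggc
A match is a description of the letters and not of binding.

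Among the Hsp70 genes 3 of 14 rose (21.4%) and 0 fell, beside 9.28% higher and 7.57% lower over all genes. In the fit of the brighter 50% of genes alone, 17.9% rose. Hspa8, the constitutive cytosolic Hsp70 (Hsc70), was 13.33, 13.23, 13.37, 13.21 and 13.33 in R6/2 mice, against 12.94, 12.81, 12.97 and 12.99 in wild-type mice. Every R6/2 mouse lay above every wild-type mouse, and the difference was 0.37 ± 0.06 (SE), or 1.29-fold (limma adjusted p 0.00370). Hspa9, the mitochondrial Hsp70 mortalin, was 9.96, 9.81, 9.9999, 9.95 and 9.94 in R6/2 mice, against 9.74, 9.65, 9.46 and 9.71 in wild-type mice (0.29 ± 0.07, adjusted p 0.0209), again without overlap. The Hspa9 call ended without R6/2 mouse R62_105 (adjusted p 0.0521). Hspa12a, a distant member of the family, ranged from 8.65 to 8.91 in R6/2 and from 8.26 to 8.71 in wild-type mice (0.32 ± 0.09, adjusted p 0.0352), and its groups overlapped.

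These Hsp70 calls rest on the brightest probe set of each gene. For Hspa8, 2 further probe sets rose by 0.39 and 0.35, while the dimmest gave -0.66 (adjusted p over all probe sets 0.0555). The 4 other probe sets of Hspa9 gave -0.13 to 0.10. When all probe sets of each gene were averaged, 0 Hsp70 genes passed (Hspa8 0.11, adjusted p 0.296; Hspa9 0.03, adjusted p 0.821; Hspa12a 0.10, adjusted p 0.757). The brightest Hspa8 probe set carries the suffix x, by which the manufacturer marks probes that may match other transcripts.

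The inducible Hsp70 genes, the classical response to heat and misfolded protein, did not pass. Hspa1b was 6.56, 6.42, 6.72, 6.07 and 6.98 in R6/2 mice, against 6.56, 6.17, 6.10 and 5.73 in wild-type mice (0.41 ± 0.19, adjusted p 0.170). Hspa1a, a near-identical copy of which the probes may share signal with Hspa1b, was 5.45, 5.17, 5.31, 4.54 and 5.51 in R6/2 mice, against 4.98, 4.85, 4.68 and 4.64 in wild-type mice (0.41 ± 0.18, adjusted p 0.139). R6/2 mouse R62_107 lay below all wild-type mice for Hspa1a, and without it the difference was 0.57 (adjusted p 0.00623). With the cortex marker score as a covariate both estimates were below 0, at -0.08 for Hspa1a and -0.20 for Hspa1b.

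Hspa5 (BiP), the Hsp70 of the endoplasmic reticulum, was 11.03, 11.18, 11.01, 11.07 and 11.10 in R6/2 mice, against 10.98, 10.76, 10.86 and 10.97 in wild-type mice. Its groups did not overlap, but it did not pass (0.18 ± 0.07, adjusted p 0.0883). The same was true of Hspa2, named after its values were seen (0.28 ± 0.09, adjusted p 0.0572). Hsph1 (Hsp110), a nucleotide exchange factor of Hsp70, gave -0.13 ± 0.08 (adjusted p 0.262), and Hspa4, of the same Hsp110 group, gave -0.00 ± 0.09 (adjusted p 0.987).

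**Figure D2:**
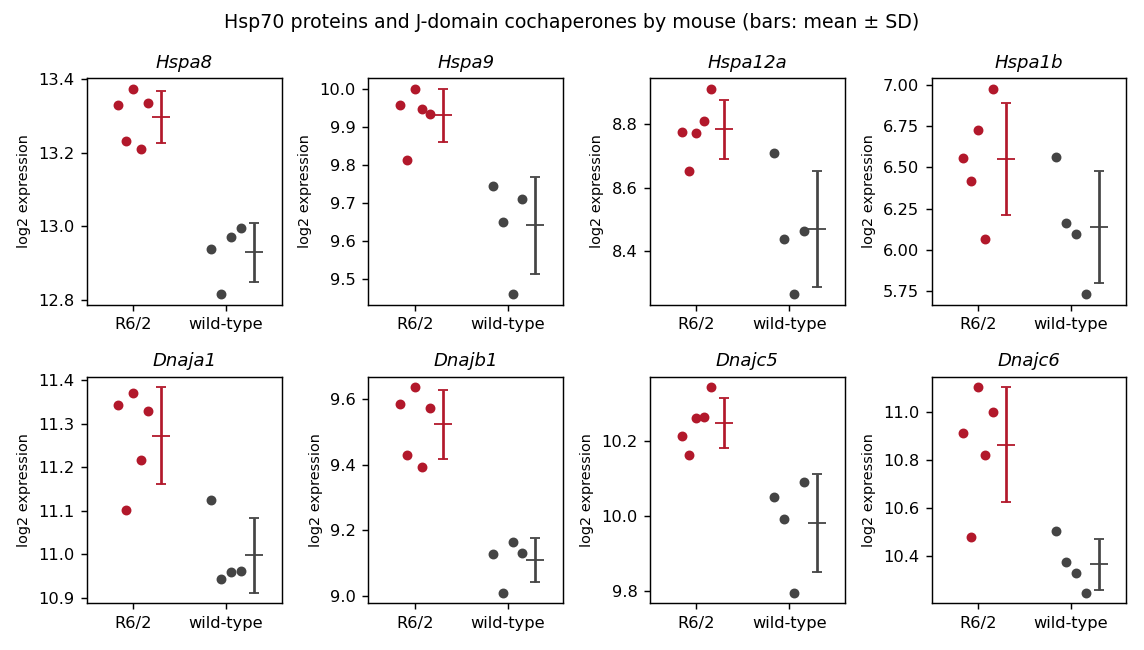
Log2 expression (y axis, scaled for each gene) in each R6/2 and wild-type mouse, with bars for the mean ± SD. R6/2 mice lie above wild-type mice without overlap for Hspa8, Hspa9, Dnajb1 and Dnajc5, with overlap for Hspa12a, Dnaja1 and Dnajc6, and Hspa1b did not pass.

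Of the 44 J-domain genes, 6 rose, 2 fell and 36 did not pass, or 18.2% past the threshold beside 16.9% of all genes. Among the Dnaja genes, which with Dnajb are the general partners of cytosolic Hsp70, 1 of 4 rose (25%, beside 9.28% of all genes). Dnaja1 was 11.34, 11.10, 11.37, 11.22 and 11.33 in R6/2 mice, against 11.12, 10.94, 10.96 and 10.96 in wild-type mice (0.27 ± 0.07, adjusted p 0.0277). R6/2 mouse 95 lay just under wild-type mouse 46, the 1 overlap. The call ended in 6 of the 9 fits that left out 1 mouse. Dnaja2 gave 0.18 ± 0.08 (adjusted p 0.128).

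Dnajb1 (Hsp40), a stress-inducible partner of Hsp70, was the 1 Dnajb gene of 13 that rose (7.69%, beside 9.28% of all genes). It was 9.58, 9.43, 9.64, 9.39 and 9.57 in R6/2 mice, against 9.13, 9.01, 9.16 and 9.13 in wild-type mice. The groups were well apart, with a difference of 0.41 ± 0.07, or 1.33-fold (adjusted p 0.00322), which held in each fit that left out 1 mouse. It also held with the mean of its probe sets (0.33, adjusted p 0.0362) but not after housekeeping centring (0.28, adjusted p 0.0671). The other Dnajb1 probe set gave 0.25 and did not pass (adjusted p over all probe sets 0.272). Dnajb6, known as a strong suppressor of polyglutamine aggregation in cells, narrowly missed the threshold (10.77 ± 0.05 in 5 R6/2 and 10.57 ± 0.11 in 4 wild-type mice, SD; difference 0.20 ± 0.07, adjusted p 0.0615). Dnajb6 passed without wild-type mouse 49 (0.25, adjusted p 0.0196), with quantile normalization (0.21, adjusted p 0.0421), with array weights (0.24, adjusted p 0.0143) and among the brighter 50% of genes (adjusted p 0.0479). It was smaller with the mean of its probe sets (0.08, adjusted p 0.441), after housekeeping centring (0.07, adjusted p 0.635) and without the 3 arrays of highest choroid plexus score, called choroid-rich here (0.14, adjusted p 0.376). Its 3 other probe sets gave -0.07 to 0.14. Dnajb2, a neuronal J protein, gave 0.16 ± 0.11 (adjusted p 0.375), and Dnajb5 gave -0.17 ± 0.10 (adjusted p 0.296).

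The Dnajc genes, whose products have specialised tasks, held changes in both directions, with 4 of 27 higher and 2 lower. That is 14.8% and 7.41%, beside 9.28% and 7.57% of all genes. Dnajc6 (auxilin), which recruits Hsc70 to strip clathrin from vesicles, was 10.91, 10.48, 11.10, 10.82 and 11.00 in R6/2 mice, against 10.51, 10.38, 10.33 and 10.25 in wild-type mice. It rose by 0.50 ± 0.12, or 1.41-fold (adjusted p 0.0148). Its 3 other, dimmer probe sets gave 0.30, 1.03 and 0.09, of which the second passed (adjusted p over all probe sets 0.00947). Dnajc5 (cysteine string protein), the J protein of synaptic vesicles, was 10.21, 10.16, 10.26, 10.26 and 10.34 in R6/2 mice, against 10.05, 9.99, 9.80 and 10.09 in wild-type mice (0.27 ± 0.07, adjusted p 0.0302). Its groups did not overlap, but the call ended in 5 of the 9 fits that left out 1 mouse and with the mean of its probe sets (0.18, adjusted p 0.356). With the cortex score as a covariate the Dnajc6 estimate was 0.22 (adjusted p 0.489). Hspa8, Dnajc5 and Dnajc6 are the 3 genes listed for vesicle and clathrin cycling, with a median of 0.37. The list is short and bright, and 17.9% of bright genes rose.

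Dnajc27, a small GTPase with a J domain, was 9.55, 9.75, 9.46, 9.48 and 9.60 in R6/2 mice, against 9.32, 9.25, 9.21 and 9.21 in wild-type mice (0.32 ± 0.07, adjusted p 0.0119). No wild-type mouse reached the R6/2 range. Dnajc12, a partner of aromatic amino acid hydroxylases, ranged from 8.28 to 8.69 in R6/2 and from 7.94 to 8.43 in wild-type mice (0.38 ± 0.12, adjusted p 0.0474). Its call ended in 7 of the 9 fits that left out 1 mouse, as did that of Hspa12a.

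Both J-protein genes that fell have roles at ribosomes and in splicing. Dnajc2, which is part of the chaperone complex at the ribosome exit, was 7.84, 7.70, 7.67, 7.46 and 7.55 in R6/2 mice, against 8.25, 8.19, 8.51 and 8.31 in wild-type mice. The lowest wild-type value was well above the highest R6/2 value, and the difference of -0.67 ± 0.09 left 0.629 of the wild-type level (adjusted p 0.00103). Hspa14, its Hsp70 partner in that complex and named for that reason, gave -0.06 ± 0.06 (adjusted p 0.556). Dnajc8, which is found in spliceosomes, was 10.64, 10.74, 10.66, 10.73 and 10.62 in R6/2 mice, against 11.00, 11.03, 11.11 and 10.90 in wild-type mice (-0.33 ± 0.06, adjusted p 0.00581). Another probe set of each gene passed in the same direction. Dnajc17 was also lower without overlap, but did not pass (-0.29 ± 0.12, adjusted p 0.117). Without wild-type mouse 49 its difference was -0.15, and its other probe sets gave -0.27 and 0.14.

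Of the 6 Bag genes 1 rose, 1 fell and 4 did not pass, or 33.3% past the threshold beside 16.9% of all genes. By the brightest probe set of each gene, the rise of Bag2 was the largest among the members. Bag2, which restrains the ubiquitin ligase CHIP on Hsp70 clients, was 5.79, 5.90, 5.70, 5.62 and 6.15 in R6/2 mice, against 5.15, 4.89, 4.89 and 4.77 in wild-type mice. Every R6/2 mouse was higher, by 0.90 ± 0.11 in the mean, or 1.87-fold (adjusted p 0.000619), from the single probe set of this gene. Bag5, whose several BAG domains inhibit Hsp70, was 9.14, 8.94, 8.9982, 9.09 and 9.09 in R6/2 mice, against 9.24, 9.26, 9.37 and 9.41 in wild-type mice (-0.27 ± 0.07, adjusted p 0.0190). This call ended without wild-type mouse 66. Among the remaining 4 were Bag3, an inducible factor that directs clients to autophagy (0.13 ± 0.07, adjusted p 0.277), and Bag1 (0.06 ± 0.08, adjusted p 0.666).

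**Figure D3:**
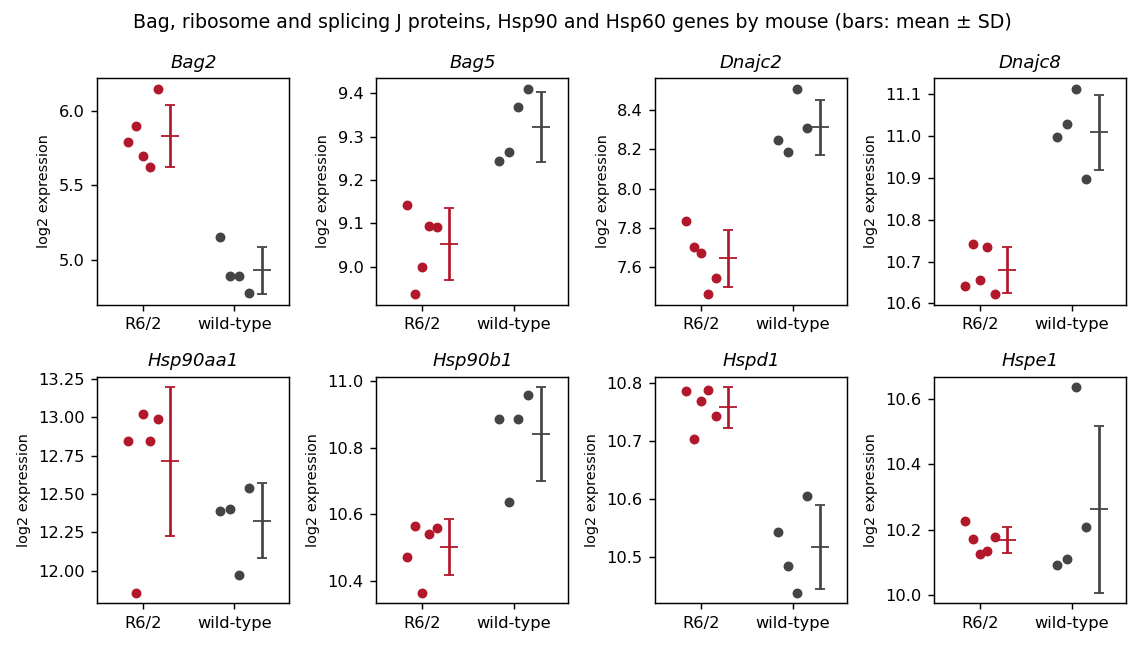
Log2 expression (y axis, scaled for each gene) in each R6/2 and wild-type mouse, with bars for the mean ± SD. Bag2 and Hspd1 are higher and Bag5, Dnajc2, Dnajc8 and Hsp90b1 lower in all R6/2 mice, R6/2 mouse 95 stands at 11.86 for Hsp90aa1, and wild-type mouse 49 at 10.63 for Hspe1.

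The 2 Hsp90 genes differed in sign. Hsp90b1 (GRP94), the Hsp90 of the endoplasmic reticulum, was 10.47, 10.57, 10.37, 10.54 and 10.56 in R6/2 mice, against 10.89, 10.64, 10.88 and 10.96 in wild-type mice. No R6/2 mouse reached the wild-type range (-0.34 ± 0.08, or 0.789 of the wild-type level, adjusted p 0.0137). The call ended with the mean of its 2 probe sets (-0.45, adjusted p 0.0978) and without the choroid-rich arrays (-0.39, adjusted p 0.0552). Hsp90aa1, the inducible cytosolic form, was 12.85, 11.86, 13.02, 12.85 and 12.99 in R6/2 mice, against 12.39, 12.40, 11.97 and 12.54 in wild-type mice. R6/2 mouse 95 was the lowest of all 9 mice and the other 4 were above all wild-type mice. The difference was 0.39 ± 0.22 (adjusted p 0.266), and 0.60 without mouse 95 (adjusted p 0.00837). It was 0.27 without wild-type mouse 49 (adjusted p 0.485) and 0.12 with the cortex score (adjusted p 0.904). A second Hsp90aa1 probe set rose by 0.32 (adjusted p over all probe sets 0.0496), and the other 3, which did not pass, gave -0.08 to 0.49. Whether the 2 genes differ was not tested.

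Of the 8 endoplasmic reticulum members, Hsp90b1 was the 1 that passed (12.5%, beside 16.9% of all genes), at a median of 0.07 over the list. Of the 6 measured mitochondrial members, Hspa9 and Hspd1 rose (33.3%, beside 9.28% of all genes), at a median of 0.04 over the list.

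Of the 9 Cct genes, 6 rose (66.7%) and 0 fell, at a median of 0.27. Over all genes 9.28% rose and 7.57% fell, and 17.9% rose in the fit of the brighter 50% alone. The chaperonin ring is built of 8 different subunits, which Tcp1 and Cct2 to Cct8 encode; Cct6b and Cct8l1, related genes outside the ring of most tissues, lay among the dim genes (means of 3.87 and 3.96 over all arrays) and did not pass. Cct2 was 10.76, 10.71, 10.78, 10.72 and 10.72 in R6/2 mice, against 10.40, 10.36, 10.38 and 10.39 in wild-type mice (0.36 ± 0.05, or 1.28-fold, adjusted p 0.00138). Cct6a was 11.02, 11.03, 11.00, 10.93 and 11.11 in R6/2 mice, against 10.68, 10.63, 10.74 and 10.72 in wild-type mice (0.32 ± 0.06, adjusted p 0.00479). In both genes every R6/2 mouse lay above every wild-type mouse.

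Cct5 was 10.62, 10.65, 10.64, 10.62 and 10.63 in R6/2 mice, against 10.39, 10.40, 10.44 and 10.43 in wild-type mice (0.22 ± 0.05, adjusted p 0.0138). Cct8 (0.46 ± 0.09, adjusted p 0.00709), Cct4 (0.37 ± 0.09, adjusted p 0.0207) and Cct3 (0.27 ± 0.07, adjusted p 0.0212) rose as well, and for each of these 6 genes all 5 R6/2 mice lay above all 4 wild-type mice. The Cct4 call ended in 3 and the Cct3 call in 2 of the 9 fits that left out 1 mouse, and Cct3 gave 0.16 with the mean of its probe sets (adjusted p 0.0692). Cct7 did not pass, at 10.51, 10.63, 10.504, 10.39 and 10.40 in R6/2 mice, against 10.29, 10.30, 10.47 and 10.27 in wild-type mice (0.15 ± 0.07, adjusted p 0.180). Here wild-type mouse 49 lay within the R6/2 range. Tcp1, the subunit outside the symbol rule and named after its values were seen, was 11.09, 11.17, 11.07, 11.11 and 11.07 in R6/2 mice, against 10.95, 10.86, 10.81 and 10.88 in wild-type mice (0.22 ± 0.06, adjusted p 0.0207). With Tcp1 counted, 7 of the 8 subunit genes rose, at a median of 0.29 over the 8. In those 7 the groups did not overlap, against 17.3% of all genes. The 16 other probe sets of the 6 Cct genes that rose all had positive differences, and 4 of them passed. The brightest probe sets of Cct2, Cct3 and Cct4 carry the suffix x, as that of Hspa8 does. Probe sets without this suffix passed for Cct2 (0.40) and Cct4 (0.29). None of the 6 other Cct3 probe sets passed (lowest adjusted p over all probe sets in limma 0.0600). After centring on housekeeping genes these 6 stayed above 0, at 0.09 to 0.33, but Cct8 alone passed (adjusted p 0.0332).

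**Figure D4:**
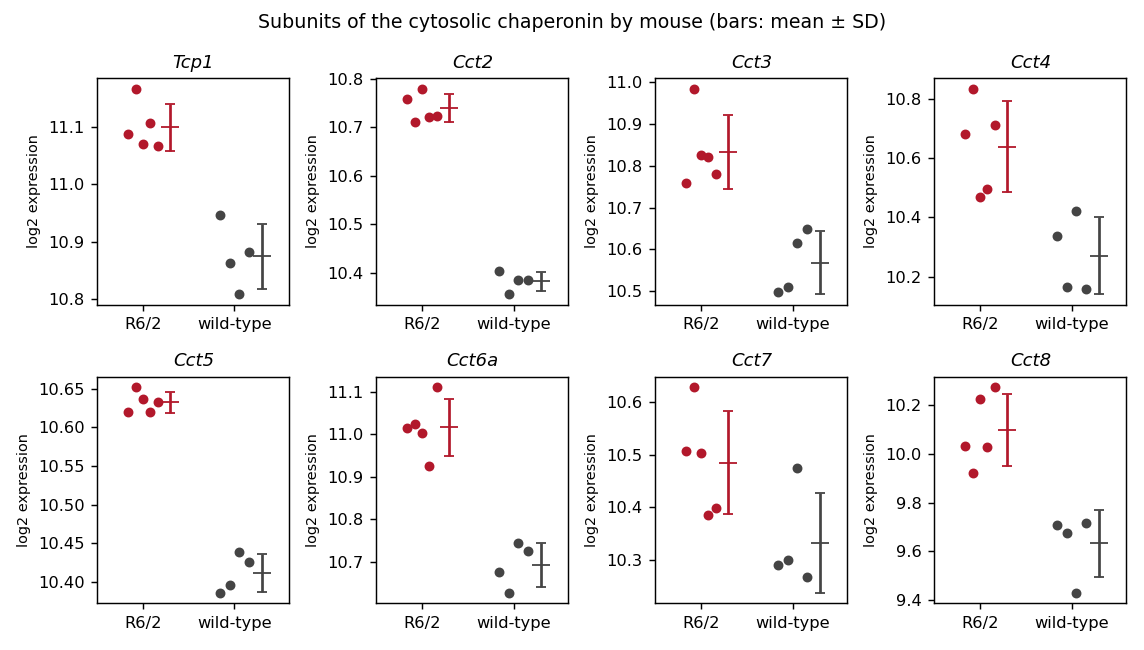
Log2 expression (y axis, scaled for each gene) of the 8 chaperonin subunit genes in each R6/2 and wild-type mouse, with bars for the mean ± SD. The groups do not overlap for any subunit but Cct7, where wild-type mouse 49 stands at 10.47.

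The mitochondrial pair Hspd1 and Hspe1, which share the element printed above, did not both rise. Hspd1 (Hsp60) was 10.79, 10.70, 10.77, 10.79 and 10.74 in R6/2 mice, against 10.54, 10.48, 10.44 and 10.61 in wild-type mice (0.24 ± 0.06, adjusted p 0.0172). Hspe1 (Hsp10), its lid, was 10.23, 10.17, 10.12, 10.14 and 10.18 in R6/2 mice, against 10.09, 10.11, 10.63 and 10.21 in wild-type mice (-0.09 ± 0.10, adjusted p 0.579). Wild-type mouse 49 was above all other mice, and without it the Hspe1 difference was 0.03. The difference between the 2 genes was not tested.

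None of the 8 genes taken as small heat shock proteins by the symbol Hspb alone passed in limma, nor did any of the 3 heat shock factor genes. Over all genes 16.9% passed. At an unadjusted p of 0.05, 2 of the 8 (Hspb8 and Hspb11) and 0 of the 3 did, but the share of all genes at that p was not counted. Both families hold dim genes, with means over all arrays of 3.59 to 7.92 (Hspb) and 3.89 to 5.07 (heat shock factors). Of the members in the dimmer 50% of genes 3.85% passed. Hspb8, a partner of Bag3, was 6.22, 6.60, 6.26, 6.45 and 6.24 in R6/2 mice, against 6.25, 7.06, 7.06 and 6.76 in wild-type mice (-0.43 ± 0.16, adjusted p 0.0899). Wild-type mouse 46 alone of its group lay in the R6/2 range, and without it the difference was -0.61 (adjusted p 0.00712). It was -0.34 without wild-type mouse 47 or 49 and -0.12 with the cortex score (adjusted p 0.841). Hspb1 (Hsp25) gave -0.05 ± 0.12 (adjusted p 0.822). Hsf2, a heat shock factor, was dim (3.92 ± 0.23 in 5 R6/2 and 3.86 ± 0.14 in 4 wild-type mice, SD) and gave 0.06 ± 0.12 (adjusted p 0.787).

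Among the textbook targets of HSF1, the main heat shock factor, 7 of 18 rose and 1 fell, or 38.9% higher beside 9.28% of all genes. In the separate fit of the brighter 50% alone, 17.9% of genes rose, but this list also holds dim genes such as Hspa1a. The list's median was 0.26 beside -0.02 over all genes. The list holds 12 members. Dnajb1, Hspa8, Hspd1 and Dnaja1 rose, whereas Hspa1a, Hspa1b, Hspb1, Bag3, Hsp90aa1, Hsph1, Hspe1 and Hspa4l did not pass. The 6 other genes of the list are counted again among the chaperones outside the symbol rule, described next. Stip1 and Ahsa1, cochaperones of Hsp90 named after their values were seen, rose by 0.33 ± 0.09 and 0.38 ± 0.10 (adjusted p 0.0220 and 0.0224). Fkbp4 rose too, and Serpinh1 was the 1 that fell.

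Of 32 measured chaperones and cochaperones outside the symbol rule, 8 rose (25%) and 1 fell (3.13%), at a median of 0.12. Over all genes 9.28% rose and 7.57% fell, and in the separate fit of the brighter 50% of genes 17.9% rose and 11.9% fell. Fkbp4, an immunophilin that binds Hsp90, was 9.08, 9.05, 9.06, 9.01 and 9.03 in R6/2 mice, against 8.48, 8.45, 8.78 and 8.65 in wild-type mice (0.46 ± 0.07, adjusted p 0.00272). Vbp1, a subunit of prefoldin, which delivers actin and tubulin to the Cct ring, rose by 0.47 ± 0.09 (adjusted p 0.00418). The other measured prefoldin genes, Pfdn1 (-0.14), Pfdn2 (-0.01), Pfdn4 (0.14) and Pfdn5 (-0.03), did not pass. Clpb, a mitochondrial disaggregase, rose by 0.28 ± 0.07 (adjusted p 0.0155). Serpinh1 (Hsp47), the collagen chaperone of the endoplasmic reticulum, fell by 0.66 ± 0.17 (adjusted p 0.0249).

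Because cortex markers moved with genotype, the fit was repeated with the cortex marker score as a covariate. The score lay higher in R6/2 mice, so its part and that of genotype cannot be fully told apart. The SE of the Cct2 difference was 0.05 without the score and 0.08 with it. With the score, 0 members passed in either direction in limma, while 1.64% of all genes did. At an unadjusted p of 0.05, 17 of 91 members did, but the share of all genes at that p was not counted. All 21 members that had passed kept their direction, and 14 of them kept at least 0.75 of their estimate. The estimate of Bag2 was 0.71 (adjusted p 0.0559), of Dnajc2 -0.66 (adjusted p 0.0532), of Cct2 0.33 (adjusted p 0.0807), of Hspa8 0.34 (adjusted p 0.142), of Dnajb1 0.33 (adjusted p 0.165) and of Hsp90b1 -0.22 (adjusted p 0.384). Dnajc6 at 0.22 and Dnaja1 at 0.13 kept the smallest shares among the rises, below those of the Cct genes.

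**Figure D5:**
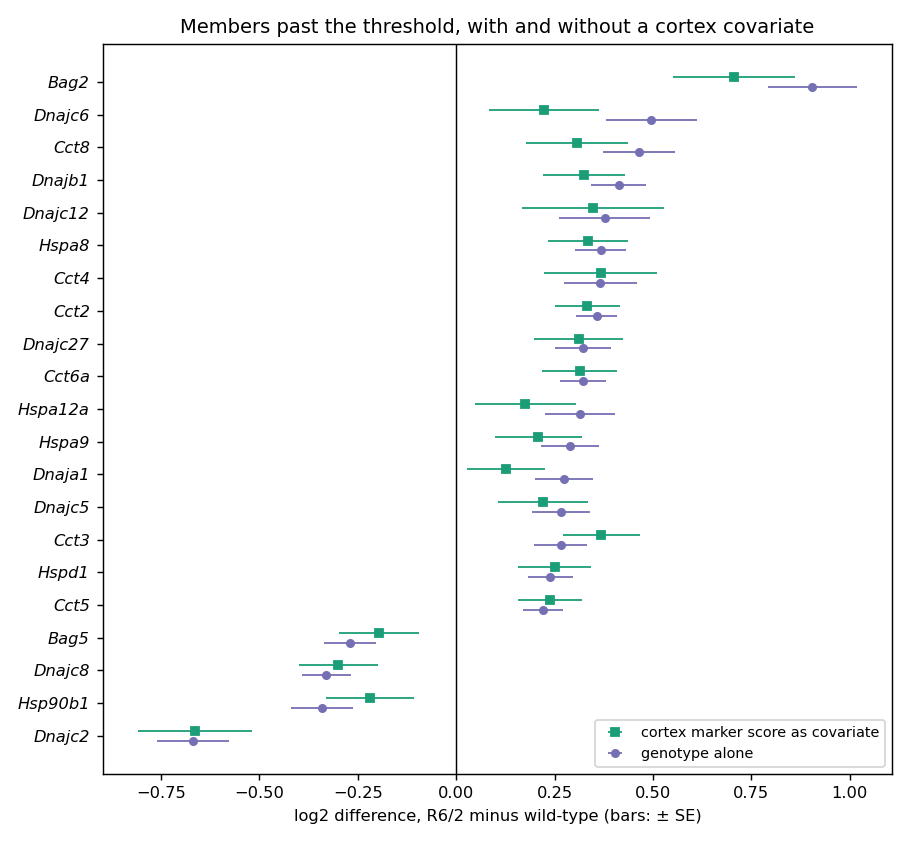
Log2 difference between R6/2 and wild-type mice (x axis, bars ± SE) for the 21 members past the threshold, fitted with genotype alone (circles) and with the cortex marker score added (squares). All 21 pairs lie on the same side of 0; Dnajc6 moves to 0.22 from the 0.50 of the fit without the score.

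When the 3 arrays with the highest choroid plexus score were left out (R6/2 mouse R62_107 and wild-type mice 47 and 66), 4.84% of all genes passed. Both groups then held fewer arrays, so the loss of arrays and that of choroid plexus signal cannot be told apart. Of the members, Bag2 (0.86, adjusted p 0.0237), Cct2 (0.35, adjusted p 0.0493) and Dnajb1 (0.41, adjusted p 0.0485) then rose, and Dnajc2 (-0.69, adjusted p 0.0241) and Dnajc8 (-0.39, adjusted p 0.0471) fell. With age as a covariate, where R6/2 mouse R62_86 alone shares the wild-type age, 0.165% of all genes and 0 members passed. At an unadjusted p of 0.05 in limma 24 of 91 members did, but the share of all genes at that p was not counted.

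Single mice were often at the edge of their group. Within the R6/2 group, mouse 95 was the lowest for 29.7% and the highest for 30.8% of the 91 members, against 20.8% and 32.2% of all genes. Mouse R62_105 was the highest for 29.7% of members and 19.7% of all genes. Within the wild-type group, mouse 49 was the highest for 42.9% of members and 40.9% of all genes.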

How the data were processed

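RNA from whole striatum of 9 mice was hybridised to expression arrays of 45101 probe sets as biotin-labelled cRNA; the protocols are those of the labels. The deposited values are on the log2 scale; per the submitters' processing notes the authors used affy and RMA, of which no version is given in the sources used here. Array medians lay between 5.37 and 5.45, and array pairs correlated at 0.979 to 0.995. For arrays, their number limits the precision. The platform annotation named exactly 1 gene for 34958 probe sets, several for 932, and did not list 9211. Symbols were updated through RefSeq gene identifiers (34754 matched). Each of 18194 genes was represented by its brightest probe set, by the mean of all 9 arrays; the 91 members had 215 probe sets. No filter on dim genes was set.

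Genotypes were compared with limma 3.58.1 in R 4.3.3 (lmFit, eBayes, genotype the only term). P-values were two-sided and adjusted over all genes by Benjamini-Hochberg; the threshold was 0.05. Every member past the threshold could be named, besides a set of members of known role whatever their result. The test was checked on simulated data with independent noise, where 71.6% of 67 log2 differences of 0.5 were recovered and 5.82% of all calls were false. Far fewer genes were changed there than passed here. Smaller differences, such as most members showed, were not simulated. The members and lists were chosen with earlier results of these data known. Alternatives were other uses of the probe sets, scaling, variance models, covariates, a stricter threshold and arrays left out. Figures were drawn with matplotlib 3.10.9.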

Additional observations from a re-analysis of the deposited data

Results flagged for a closer look

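In the values of the 43 named members (86 groups of mice), 6 values, from 3 mice, lay far from the rest of their group by Dixon's criterion, which chance meets in about 1 of 20 groups. R6/2 mouse 95 was low for Hsp90aa1 (11.86, the others 12.85 to 13.02). Wild-type mouse 49 was high for Cct7 (10.47, the others 10.27 to 10.30), Cct8l1 (4.34, the others 3.88 to 3.95) and Dnajc12 (8.43, the others 7.94 to 7.99), and low for Cct8 (9.43, the others 9.67 to 9.72). Wild-type mouse 46 was high for Dnaja1 (11.12, the others 10.94 to 10.96).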

How the results depend on the processing

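The 17 higher and 4 lower members became 11 and 3 with the mean of probe sets, 3 and 4 after housekeeping centring, 0 and 0 with age or the cortex score as a covariate, 3 and 2 when the 3 arrays of highest choroid plexus score were left out, and 6 and 2 at an adjusted p of 0.01. Leaving out 1 mouse gave 11 to 19 higher and 3 to 5 lower members. The fewest were higher without wild-type mouse 47 (11, beside 1120 of all genes). Of the 21 calls, 13 held in all 9 of these fits. Housekeeping centring moved the median of all genes to -0.15 from -0.02 and the share of higher calls to 18.2% from 55.1% (members 3 of 7), so the rises are relative to the rest of each array; of its 7 measured genes 2 themselves rose. With every probe set, the brighter 50%, quantile normalization, trend and robust settings or array weights, 16 to 22 members were higher and 4 or 5 lower. Over the genes of each of these fits, 1444 to 2116 were higher and 1086 to 1671 lower. The motif count rose to 17 from 4 with 2 units.

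None of the 21 calls changed sign. Among members that did not pass, the sign turned with housekeeping centring (Bag1 -0.0738, Bag3 -0.00639, Hsf2 -0.0751), with the cortex score (Hsf2 -0.23, Hspa1a -0.0841, Hspa1b -0.20, Hspb1 0.0825, Hspe1 0.0262), with age (Hspa4 0.17, Hspa14 0.0401), with array weights (Hspa4 0.0186), with every probe set (Hspa14 0.16), with the mean of probe sets (Hspa14 0.0312) and without the choroid-rich arrays (Hspa4 0.0792, Hspb1 0.0882). Leaving out 1 mouse gave ranges of -0.0359 to 0.122 for Hsf2, -0.0508 to 0.0613 for Hspa4, -0.133 to 0.0350 for Hspb1 and -0.150 to 0.0304 for Hspe1. The causes were not tested. No paired analysis was possible because the groups share no animal numbers.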
